A study of Rattus norvegicus with 48 samples.

Results

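C3, complement component 3 (ENSRNOG00000046834 in the count tables), was followed around silicon electrode shanks in rat motor cortex. It is 1 gene, present as 1 row in the table of the implanted rats, which lists 17317 genes, and in that of the naive rats, which lists 17616. The tables hold Ensembl IDs and no names, so the name C3 comes with the choice of the row and was not checked against a gene table of the files' build. C3 was selected on its counts in tissue beside the shank, which were high at 1 week and 6 weeks against 24 h and against naive cortex. Those comparisons are therefore given as levels, without a test.

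The study sequenced RNA from areas cut out of fixed brain sections by laser capture microdissection, where a microscope-guided laser frees a chosen area. All rats were Sprague-Dawley and labelled WT, and the protocol that all samples share gives males aged 12 to 14 weeks. Implanted rats received a single-shank silicon probe in M1, which was left for 24 h (3 rats), 1 week (5 rats) or 6 weeks (4 rats). Near tissue was cut no more than 100 µm from the shank, and far tissue at a distance of about 500 µm. Each time has 6 libraries of either kind. Naive tissue came from 3 rats without an implant, cut at the matching 100 µm and 500 µm positions (6 libraries each). The labels describe these rats as unimplanted and name no sham surgery, so craniotomy and implant are not separated. Some rats carried a shank in each hemisphere, and their libraries were summed per rat and distance, because the rat is the replicate.

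C3 is the protein on which the classical, lectin and alternative routes of complement activation converge. Convertase enzymes cut it into a small inflammatory fragment and a larger one that attaches covalently to nearby surfaces and marks them for uptake by phagocytes bearing complement receptors. Most circulating C3 is made in the liver. In the brain, microglia and astrocytes also make it. C3 is widely used as a marker of reactive astrocytes, and in development complement tags synapses that microglia then remove. The tissue was bulk, so more C3-expressing cells and more C3 RNA per cell cannot be told apart. Which cells carried the RNA was not measured. The other complement genes and the cell type markers could not be matched to IDs and were not analysed here.

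The sequence just before the C3 transcription start is shown because it is the regulatory stretch nearest to the RNA measured here. In RefSeq (build GRCr8, minus strand, chr9:2201340-2201589) the 250 bases that end at the start site read, 5′ to 3′, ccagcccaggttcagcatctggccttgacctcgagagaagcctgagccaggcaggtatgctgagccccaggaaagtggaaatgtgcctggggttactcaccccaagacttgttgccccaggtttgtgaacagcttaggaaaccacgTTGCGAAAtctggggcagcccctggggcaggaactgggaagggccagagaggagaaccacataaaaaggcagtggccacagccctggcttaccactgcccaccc. The capitals mark the only match, from -104 to -97, to TTGCGNAA, a pattern bound by C/EBP factors. Both strands were searched, and 0.729% of 33469 rat promoter stretches of this length hold that pattern. No match was found to TTCNNNGAA (STAT, held by 7.67%), TGANTCA (AP-1, 6.34%) or TATAAA (12.9%). A match is a description of the letters; binding was not measured in these samples.

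The 48 libraries totalled 3363892 to 12844185 counts and detected 3062 to 16023 genes. Fewer than 6000 genes were detected in 4 libraries: near tissue of rat 29 (right) at 24 h, near tissue of rats 20 and 23 (right) at 1 week, and far tissue of rat 23 (left) at 1 week. Implanted and naive libraries are numbered in separate series in the labels and lie in separate tables, so in any comparison with naive tissue an effect of the implant and one of library series cannot be told apart. Levels below are CPM, the counts scaled to a common library size, of the rat's summed libraries, with TMM scaling over all 30 sums, unless a share of the library total is named.

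Near the shank, C3 was at most 81.8 CPM in any rat at 24 h and at least 138 CPM in every rat at 1 and 6 weeks. At 24 h the near level was 81.8 CPM in rat 25, 19.9 in rat 29 and 33.6 in rat 30, a mean of 45.1 ± 32.5 (SD, n = 3). At 1 week it was 680 CPM in rat 22, 576 in rat 9, 211 in rat 20, 185 in rat 23 and 184 in rat 10, a mean of 367 ± 241 (n = 5). Rats 22 and 9 were high and the other 3 lay close together on this scale, and none overlapped the 24 h rats. As a share of the library total, rat 20 held 314 CPM, against 172 in rat 10 and 171 in rat 23. The near library of rat 20 is among those with few detected genes. At 6 weeks the near level was 448 CPM in rat 2, 323 in rat 17, 160 in rat 11 and 138 in rat 19, a mean of 267 ± 146 (n = 4). These too lay above every 24 h rat and overlapped the 1-week rats. The mean was 8.15-fold that of 24 h at 1 week and 5.92-fold at 6 weeks. Near ranges above those of 24 h were seen for 0.433% of 14783 genes at 1 week and 2.29% at 6 weeks, counted over the same sums.

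**Figure D1:**
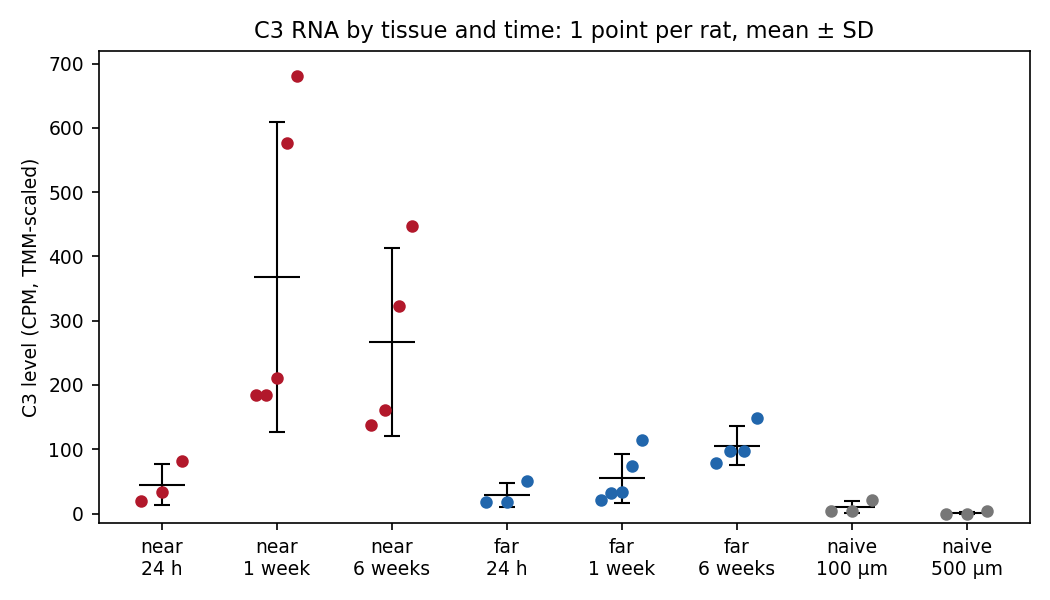
C3 level (CPM, linear axis) in each tissue and time, with 1 point per rat, a horizontal mark at the mean and bars of 1 SD. Near tissue at 1 week (184 to 680 CPM) and 6 weeks (138 to 448) lies above near tissue at 24 h (19.9 to 81.8), and far tissue at 6 weeks (78.1 to 149) lies above far tissue at 24 h (17.6 to 50.7).

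Far tissue had means of 28.7 to 105 CPM. At 24 h the far level was 50.7 CPM in rat 30, 17.8 in rat 29 and 17.6 in rat 25 (mean 28.7 ± 19.0, SD, n = 3). At 1 week it was 114 CPM in rat 22, 73.4 in rat 10, 33.6 in rat 9, 32.5 in rat 23 and 21.3 in rat 20 (mean 54.9 ± 38.4, n = 5). The 1-week rats overlapped the 24 h rats, although rats 29 and 25 at 24 h lay below all of them. At 6 weeks it was 149 CPM in rat 19, 97.5 in rat 17, 97.4 in rat 2 and 78.1 in rat 11 (mean 105 ± 30.2, n = 4). Every 6-week rat lay above every 24 h rat.

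In naive cortex C3 was counted in all 3 rats at 100 µm and in 1 of 3 at 500 µm. At 100 µm the level was 21.5 CPM in rat n3, 4.59 in rat n2 and 4.38 in rat n5, from 405, 62 and 52 counts (mean 10.2 ± 9.82, SD, n = 3). At 500 µm rats n2 and n3 had 0 counts and rat n5 had 38, or 3.26 CPM. A count of 0 allows up to 3 counts, here 0.224 CPM in rat n2 and 0.217 in rat n3. These floors and all intervals cover counting error only. C3 had 0 counts in 7 of 12 naive libraries, of which 5 were among the 6 at 500 µm. The 7 libraries detected 7211 to 11600 genes. Among implanted rats it had 0 counts in 3 of 36 libraries, which detected 3062 to 6095 genes. The part of these low gene numbers in the zeros was not tested.

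Ordered by mean, the groups ran near at 1 week, near at 6 weeks, far at 6 weeks, far at 1 week, near at 24 h, far at 24 h, naive at 100 µm and naive at 500 µm. The ranges of each neighbouring pair in this order overlapped, except for the naive positions, where the lowest rat at 100 µm (4.38 CPM) stood just above the highest at 500 µm (3.26). Naive tissue at 100 µm above 500 µm in every rat, with ranges that did not overlap, was seen for 9.8% of genes. The mean of far tissue at 6 weeks was 2.34-fold that of near tissue at 24 h, and the lowest far rat at 6 weeks (78.1 CPM) was just below the highest near rat at 24 h (81.8).

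Near and far tissue of the same rat were then set side by side, which asks whether C3 RNA depended on the distance from the shank. Since the near libraries chose C3, these values are a description and no p is given for them. At 1 week C3 was higher near the shank in all 5 rats: near over far was 17.2-fold in rat 9, 9.92 in rat 20, 5.98 in rat 22, 5.69 in rat 23 and 2.51 in rat 10. In rat 23 the left far library had 0 counts, and on the right near and far tissue held 97.7 and 56.8 CPM of the library total. The left far and right near libraries of rat 23 and the near library of rat 20 had few detected genes. The mean log2 ratio was 2.77 ± 1.03 (SD, n = 5). Every near rat also lay above every far rat (184 against at most 114 CPM), which held for 0.277% of genes. Near above far in 5 of 5 rats was seen for 1.22% of genes.

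The fold change fitted by edgeR at 1 week, with the rat as a block, was 2.78 ± 0.41 (approximate SE) on the log2 scale, and 2.45 to 3.12 over 18 alternatives. It was 2.46 without the 4 libraries of few detected genes. Their removal takes out rat 20 and leaves rat 23 with near tissue of the left shank and far tissue of the right. All 14399 fitted genes together had a median of -0.66. Leaving out rat 9 gave a median of -1.04, leaving out rat 20 gave -0.23, and leaving out those 4 libraries gave -0.24. It was -0.17 without the block.

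At 24 h the near-far difference had no common direction. Near over far was 4.65-fold in rat 25, 1.12 in rat 29 and 0.663 in rat 30. The fitted log2 fold change was 0.55 ± 0.52. It was -0.22 without rat 25 and 1.19 without rat 30. The ratio of rat 29 was also below 1 when counts were scaled by library totals alone (0.777).

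At 6 weeks near over far was 4.60-fold in rat 2, 3.31 in rat 17, 2.05 in rat 11 and 0.927 in rat 19. These ratios lay within the range of the 24 h rats. C3 was higher near the shank in 3 of 4 rats and about equal in rat 19, which had the highest far level of the series. The fitted log2 fold change was 1.21 ± 0.44, with 0.86 to 1.65 over 18 alternatives.

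**Figure D2:**
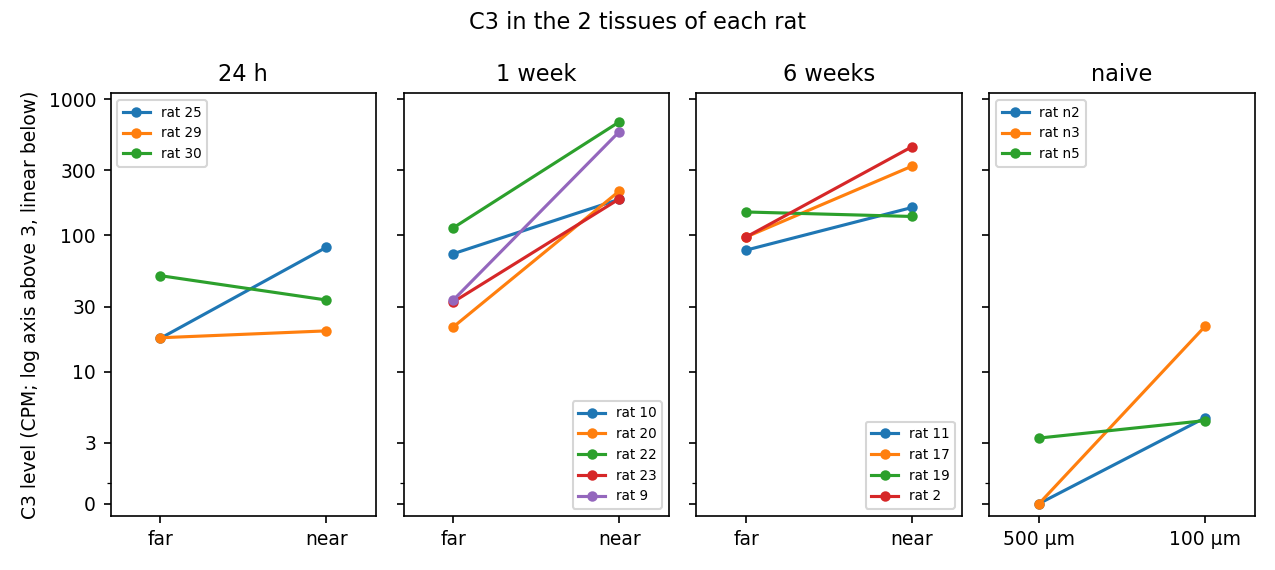
C3 level (CPM, log axis above 3 and linear below) in far and near tissue, joined by a line for each rat, at 24 h, 1 week and 6 weeks, with the 500 µm and 100 µm positions of naive rats in the last panel. The lines of all 5 rats climb towards the shank at 1 week, while rat 30 at 24 h (0.663-fold) and rat 19 at 6 weeks (0.927-fold) run slightly downward.

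Over all times near exceeded far in 10 of 12 rats, with a mean log2 ratio of 1.71 ± 1.41 (SD, n = 12), and in 9 of 12 with scaling by library totals. Near above far in at least 10 of 12 rats was seen for 2.14% of genes. The fitted near-far difference at 1 week minus that at 24 h was 2.22 ± 0.66 on the log2 scale, a value that contains the near change that chose C3. The difference at 6 weeks minus that at 1 week was -1.57 ± 0.59. At 6 weeks minus 24 h it was 0.66 ± 0.68, and between 0.016 (without rat 30) and 1.45 (without rat 25) with 1 rat left out.

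Far tissue was compared between times, in libraries that played no part in choosing C3. The far level at 6 weeks had a mean 3.68-fold that at 24 h. The log2 fold change was 1.87 ± 0.56, with an unadjusted p = 0.00179 and an adjusted p = 1 in edgeR. 0% of the 12995 genes were called (533 had an unadjusted p below 0.05), and C3 stood at number 6 by p. DESeq2 gave 1.90 with an adjusted p = 0.0387, among 219 genes it called. Far ranges at 6 weeks above those at 24 h were seen for 1.66% of genes. From 24 h to 1 week the log2 fold change was 0.93 ± 0.52 (adjusted p = 1), with 0.48 without rat 22 and 1.63 without rat 30. From 1 week to 6 weeks it was 0.94 ± 0.46 (adjusted p = 0.966). In each of these comparisons edgeR called 0% of genes. An unadjusted p below 0.05 was reached by 546 and 661 genes, and DESeq2 called 196 and 129.

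**Figure D3:**
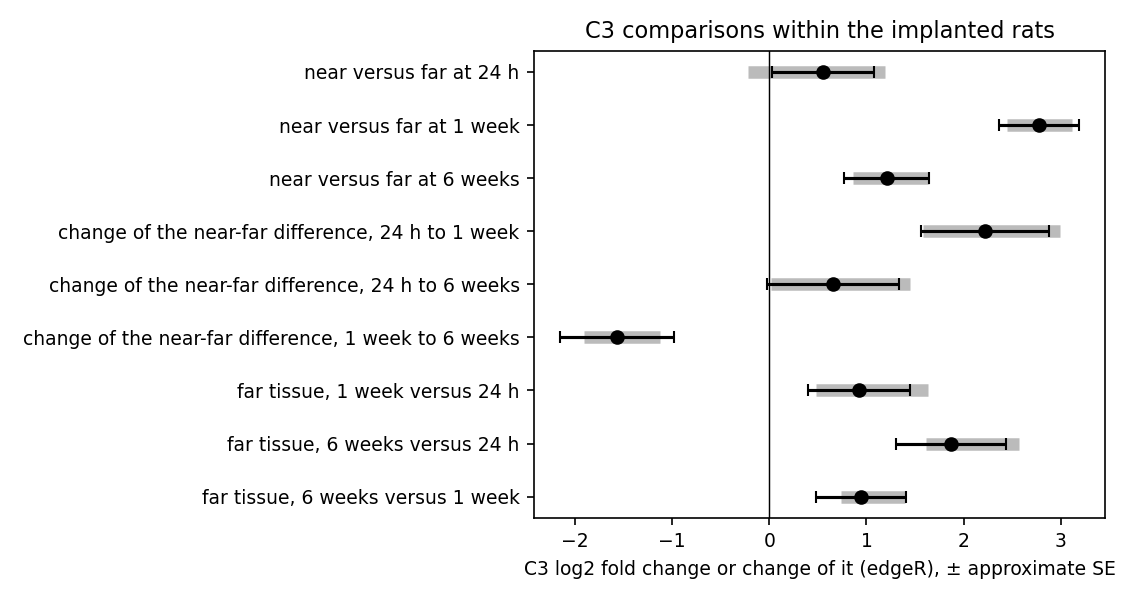
Log2 fold changes of C3 between near and far tissue, their changes between times, and changes of far tissue between times, as points with bars of 1 approximate SE from edgeR. Grey bands span the alternatives, DESeq2 included, and near versus far at 1 week stands farthest from 0 (2.78), while the band at 24 h crosses 0 (-0.22 without rat 25).

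Levels in implanted rats were set beside those in naive tissue at the matching position. The near mean was 4.44-fold the naive mean at 100 µm at 24 h, 36.2-fold at 1 week and 26.3-fold at 6 weeks. The 24 h near rats overlapped the naive ones, since rat 29 (19.9 CPM) lay below rat n3 (21.5). At 1 and 6 weeks no rat overlapped, which was so for 0.791% and 2.31% of genes. Far tissue exceeded every naive rat at 500 µm at all 3 times, the lowest far rats having 17.6, 21.3 and 78.1 CPM against at most 3.26. The same was seen for 5.59%, 2.29% and 3.14% of genes at 24 h, 1 week and 6 weeks.

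In edgeR the far-naive differences were 4.69 ± 1.33 at 24 h, 5.62 ± 1.35 at 1 week and 6.56 ± 1.43 at 6 weeks on the log2 scale (adjusted p = 0.642, 0.225 and 0.188). Called genes made up 0.00748%, 0.127% and 0.0598%. These sizes rest on the 38 counts of 1 naive rat. With the naive libraries of both positions summed per rat, the differences were 2.18, 3.11 and 4.05. These are given without p, since naive tissue at 100 µm took part in choosing C3. Without rat n5 naive tissue at 500 µm had 0 counts and C3 was called at all 3 times (adjusted p = 1.19e-07, 4.29e-09 and 1.11e-09), and without rat n3 it was called at 6 weeks (5.97, adjusted p = 0.0483). DESeq2 called C3 at each time (adjusted p = 0.00468, 1.40e-05 and 1.48e-06) among 680, 777 and 659 genes.

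In the naive rats the level at 100 µm was above that at 500 µm in 3 of 3, the direction of near against far tissue. Against the floor of 3 counts per rat at 500 µm, C3 at 100 µm was at least 20.5-fold higher in rat n2 and at least 99.3-fold higher in rat n3, while in rat n5 it was 1.34-fold. The counts of rats n2 and n5 at 100 µm (62 and 52) and of rat n5 at 500 µm (38) all came from the right hemisphere. The left hemispheres of these rats had 0 counts at both positions. In rat n3 the 100 µm counts were 330 on the left and 75 on the right. The fitted log2 fold change was 7.28 ± 5.62 (edgeR), a value that depends on the 0 counts. It was 4.74 without rat n2, 3.89 without rat n3 and 10.3 without rat n5. No p is given for C3 here, since naive tissue at 100 µm took part in choosing C3. In this comparison 0% of 11839 genes were called (600 had an unadjusted p below 0.05). DESeq2 called 1357 genes. The levels at 100 µm were nonetheless 4.38 to 21.5 CPM, below every near rat at 1 and 6 weeks.

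The single libraries showed how uneven C3 was between shanks, and other genes were uneven too, as given below. Of 6 shanks at each time, near tissue held a larger share of C3 than its far tissue at 2 at 24 h, 6 at 1 week and 4 at 6 weeks. In rat 25 at 24 h the right shank had 1308 near counts, a share of 166 CPM of the library total (95% Wilson interval 157 to 175), and the left had 29, or 5.91 CPM (4.11 to 8.48). The 28.1-fold gap between these single libraries was wider than the 9.13-fold range over the 24 h rats. That range was taken between sums of both hemispheres, also as shares of the library total.

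In rat 29 near tissue had 243 counts on the left and 0 on the right. The floor of 3 counts in that right library was 0.352 CPM of the library total. Far tissue of this rat had 0 on the left and 218 on the right. In rat 23 far tissue at 1 week had 0 counts on the left and 446 on the right, and its near tissue had 1642 and 474. The right near library of rat 29 and the left far library of rat 23 are among the 4 with few detected genes.

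At 6 weeks rat 17 had 3944 near counts on the right and 863 on the left, against 522 and 1031 in far tissue. Rat 19 had 1908 near and 2984 far counts on the right, and 453 and 333 on the left. The right hemisphere of rat 19 therefore gave most of its high far level, at 232 CPM of the library total against 39.9 on the left. Where both hemispheres had counts, they differed 2.24- to 28.1-fold in near tissue and 2.04- to 5.82-fold in far tissue. The left-right difference of C3 was taken on a log2 CPM scale with a prior count of 2. It exceeded the median over 5350 genes (those averaging log2 CPM 3 or more) in 5 of 6 near, 6 of 6 far and 4 of 6 naive pairs. The naive pairs of rats n2 and n3 at 500 µm had 0 counts on both sides, so their difference was 0. The share of genes that differed less than C3 was 44.0% to 89.7% in near pairs and 68.3% to 95.7% in far pairs. In the naive pairs with counts it was 80.1% to 99.1%. In near tissue of rat 29 the median gene differed by 5.46 log2 units, against 6.80 for C3.

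**Figure D4:**
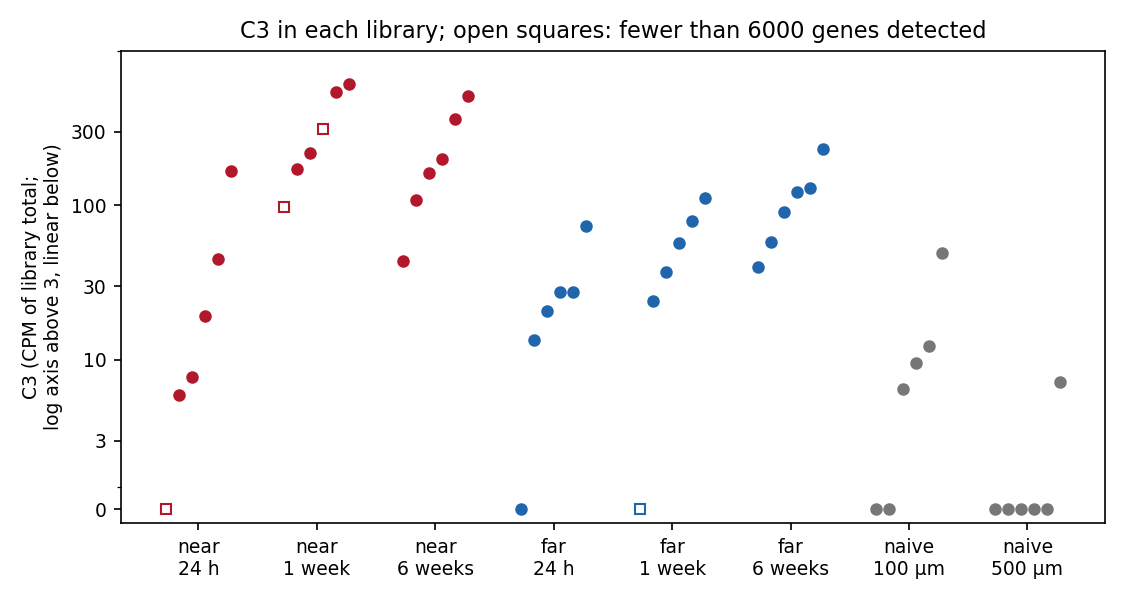
C3 as CPM of the library total (log axis above 3, linear below) in each of the 48 libraries, sorted within a group. Open squares are the 4 libraries with fewer than 6000 genes detected, and points at 0 are the 3 implanted and 7 naive libraries without a C3 count.

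Genes whose levels followed C3 were sought over the 24 near and far sums of the implanted rats, by Pearson's r of log2 CPM among 5934 other genes. These values describe sums that share rats and depth. ENSRNOG00000001216 came first (r = 0.81, Spearman's rho 0.80), with near means of 34.3, 140 and 102 CPM and far means of 36.9, 49.3 and 45.4 at 24 h, 1 week and 6 weeks. ENSRNOG00000016891 came next (r = 0.73, rho 0.78), with near means of 25.9, 71.0 and 92.3 CPM and far means of 17.2, 27.2 and 56.6. Both kept these places with Spearman's rho and with scaling by library totals.

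At the other end ENSRNOG00000001304 had r = -0.73 and ENSRNOG00000002773 had r = -0.71. The latter had near means of 182, 98.4 and 119 CPM and far means of 336, 207 and 285. With scaling by library totals these correlations were -0.53 and -0.46. The median r over all compared genes was -0.14. The files pair none of these IDs with a name.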

How the data were processed

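The deposited values are whole-number counts of reads per gene, in 1 table for 36 implanted and 1 for 12 naive libraries. Tools listed in the submitters' processing notes, without roles, are STAR 2.6.1b, RSEM 1.3.1, cutadapt 2.3, FastQC 0.11.8 and DESeq2, and the genome build listed is Rnor_6.0. Per the labels' protocols, the library kit keeps strand. The promoter comes from another build, GRCr8.

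C3, the comparisons and the lists were chosen with earlier results of these data known. Counts were summed per rat and distance. The test was edgeR's (version 4.0.16, R 4.3.3), with filterByExpr, TMM and a robust quasi-likelihood fit (Benjamini-Hochberg adjustment over all genes, called below 0.05). Near and far of all times shared a fit blocked by rat, as the labels name the rat of each library. Near and far deviations of a rat correlated between 0.0051 and 0.14, above 0.1 in 1 of 12 rats. Far tissue was compared in fits without a block, against naive tissue over the 15936 genes of both tables. Fits that hold near libraries were planned as tests but are reported without p-values, because those libraries chose C3. The ± of a log2 fold change is the fold change divided by the root of F. DESeq2 1.42.0 was an alternative. Over 120 pairs of libraries within groups, chi-square was at least 55.6 per degree of freedom, so none repeated another. A fit of each kind was run on simulated counts that held no rat effect. The outcome of those runs is not given here. Genes of like pattern were named by rule as the 2 highest and 2 lowest correlations among genes averaging log2 CPM 3 or more.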

Additional observations from a re-analysis of the deposited data

How the results depend on the processing

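The alternatives were DESeq2 size factors, the DESeq2 Wald test, leaving out each rat in turn, no low-count filter, no block, fewer samples in the fit, naive positions summed, and no libraries of few detected genes. The direction of C3 reversed only for near versus far at 24 h without rat 25 (-0.22; range with 1 rat left out -0.22 to 1.19). The DESeq2 Wald test gave 2.27 for the change of the near-far difference from 24 h to 1 week, a value not used as a test here. It alone called far tissue at 6 weeks versus 24 h (1.90). It also called far versus naive at 24 h (4.70), and gave 7.47 for the naive positions, likewise not used as a test. Far versus naive at 1 and 6 weeks was called by DESeq2 (5.72 and 6.60). With naive positions summed the differences were 3.11 and 4.05, values not used as a test here. With 1 rat left out, far versus naive had ranges of 4.01 to 11.48 (24 h), 5.03 to 12.41 (1 week) and 5.97 to 13.35 (6 weeks). The highest values, all called, came without rat n5, when naive tissue at 500 µm had 0 counts and the fitted size is no fold; at 6 weeks C3 was also called without rat n3 (5.97, adjusted p = 0.0483). Without the replicate block, near versus far was 0.65, 2.75 and 1.33 at the 3 times, against 0.55, 2.78 and 1.21 with it. The naive positions gave 3.14 without the block, against 7.28 with it. No naive library was among those of few detected genes.

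Counts of called genes over edgeR alternatives were 1 to 9, 4 to 22 and 2 to 18 for far versus naive at 24 h, 1 week and 6 weeks, against 1, 17 and 8. They were at most 7 for the comparisons of far tissue between times and at most 9 for the naive positions, against 0 in each.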
